A study of Ovis aries with 26 samples.

Results

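Single cells of the term sheep pancreas were compared between lambs that lack CFTR, the chloride and bicarbonate channel mutated in cystic fibrosis (CF), and wild-type (WT) lambs. The comparison rests on the libraries labelled CF term (5 libraries from 3 animals) and WT Term (4 libraries from 4 animals), and on the 33913 cells of these 9 libraries that passed the filters, of 79510 such cells in all 26 libraries of the series. The clearest differences lay in the duct-like cells. There, 98 genes were higher (0.873% of the genes tested) and 21 lower (0.187%) in CF animals. The higher ones held basement membrane and other matrix genes (COL4A1, COL4A2, FN1, TNC, LOXL1) and genes of the contractile cytoskeleton (TAGLN, CNN1, MYH9). Leaving out 1 animal moved the number of calls to between 0 and 373. In the acinar-like, endocrine-like, endothelial-like, fibroblast-like, mural-like and immune-like cells the same test called no gene. DESeq2, another count model, called some in acinar-like, endothelial-like, fibroblast-like and immune-like cells. Fewer WT animals entered for the endocrine-like, fibroblast-like, mural-like and immune-like cells. The counts thus do not show that differences were confined to duct-like cells.

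In the exocrine pancreas, acinar cells make digestive enzymes and release them into ducts, whose cells secrete a bicarbonate-rich fluid that flushes the enzymes out. CFTR sits in the apical membrane of the duct cells and carries chloride and bicarbonate into the lumen, where it works with anion exchangers and with sodium bicarbonate cotransporters of the opposite membrane. In cystic fibrosis the ducts become obstructed, acinar tissue is lost and fibrous tissue takes its place, a process that begins before birth.

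All animals were American Romney sheep taken at term. CF donors 1 and 2 were female CFTR-/- lambs born of natural breeding. CF donor 3 was a male CFTR-/- lamb cloned by nuclear transfer, per the study's methods from a single neonatal fibroblast line targeted in exon 2 of CFTR. WT donors 1, 2 and 4 were male and WT donor 3 was female, all naturally bred. Libraries A and B of CF donors 1 and 3 were separate pieces of tissue from one animal, so their counts were summed and the animal is the replicate throughout (n = 3 CF and n = 4 WT animals). Sex, cloning and genotype are in part confounded: 2 of 3 CF animals were female against 1 of 4 WT animals, and the only clone was a CF animal.

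Each library held the unique molecular identifiers (UMIs, counts of single captured transcripts) of the 3′ ends of transcripts in each droplet barcode. The 9 libraries held between 34477102 and 171256169 UMIs, and at most 11 barcodes were shared by any pair of these libraries. WT donor 1 stood apart: the median mitochondrial share over all of its barcodes was 20.86%, and 1082 of its 2090 barcodes were kept. The share was 3.6% to 5.9% in WT donors 2 to 4 and 3.95% and 4.58% in the libraries of CF donor 1. It was 8.68% in CF donor 2 and 10.48% and 11.3% in the libraries of CF donor 3. CF donor 2 kept 3541 of 6403 barcodes, and the libraries of CF donor 3 kept 2074 of 3452 and 2046 of 3502. Cells were assigned to a lineage by fixed marker genes, and the lineages are named here by likeness to those markers. WT donor 1 gave 1 endocrine-like, 9 immune-like, 12 mural-like and 13 fibroblast-like cells, and WT donor 3 gave 10 mural-like cells. A minimum of 20 cells per animal left 3 CF against 3 WT animals for the endocrine-like, immune-like and fibroblast-like cells, 3 against 2 for the mural-like cells, and all 7 animals for the others. Nothing in the labels names a processing batch. The paper states that single-cell animals were collected over several yearly breeding cycles and that different kit versions were used. It does not say which animal had which.

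The first question was whether the cell types were recovered in other proportions from the CF pancreas. Acinar-like cells made up 55.8%, 30.2% and 23.1% of the kept cells in CF donors 1 to 3, and 57.2%, 57.0%, 78.0% and 63.1% in WT donors 1 to 4. The highest CF animal lay just under the lowest WT animal, so the groups did not overlap. The mean was 36.4% ± 17.2 (SD, n = 3) in CF against 63.8% ± 9.88 (SD, n = 4) in WT animals, a difference of -27.5 percentage points (exact two-sided permutation test, p = 0.0571, which is the smallest p that 3 against 4 animals allow, and 0.309 after Benjamini-Hochberg adjustment over 9 classes). With edgeR on cell numbers the acinar-like log2 fold change was -0.81 ± 0.76 (SE, adjusted p = 0.535), and the lowest adjusted p of any class was 0.234, for endothelial-like (1.71 ± 0.79) and mural-like cells (1.87 ± 0.91). The libraries A and B of an animal gave close values, 56.9% and 54.7% for the acinar-like cells of CF donor 1.

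All other classes overlapped between the groups. Duct-like cells took 8.61% to 35.8% of the cells of CF animals and 5.94% to 27.6% in WT animals. Endothelial-like cells took 4.90% to 14.9% in CF and 1.26% to 5.02% in WT animals (difference 7.80 percentage points, exact permutation p = 0.114, adjusted p = 0.309). Mural-like cells, gated by markers of pericytes and smooth muscle, took 2.26% to 17.9% against 0.308% to 5.35%, and immune-like cells 5.20% to 9.18% against 0.832% to 6.92% (exact permutation p = 0.171 for each, adjusted p = 0.309). The study reads a term cluster marked by CALD1, TPM2, TAGLN and SPARC, with COL4A1, COL4A2 and ACTA2 also expressed, as stellate cells. It reports that cluster as overrepresented in CF animals by a proportion test on single cells. TPM2 is also a mural gate marker. The mural-like class may therefore hold stellate cells, and the gate does not tell them from vessel cells. Fibroblast-like cells took 1.58% to 6.52% in CF and 0.924% to 9.97% in WT animals. Shares of one sample sum to the whole, so a lower acinar-like share raises the others. With the acinar-like cells left out of the denominator, the duct-like share was lower in CF animals by 5.73 percentage points and the endocrine-like share lower by 1.71. The tissue was digested with enzymes before loading. CF donors 2 and 3, which had the lowest acinar-like shares, also had higher mitochondrial shares over all barcodes than every animal but WT donor 1. The parts that digestion and cell loss have in these shares were not tested.

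**Figure D1:**
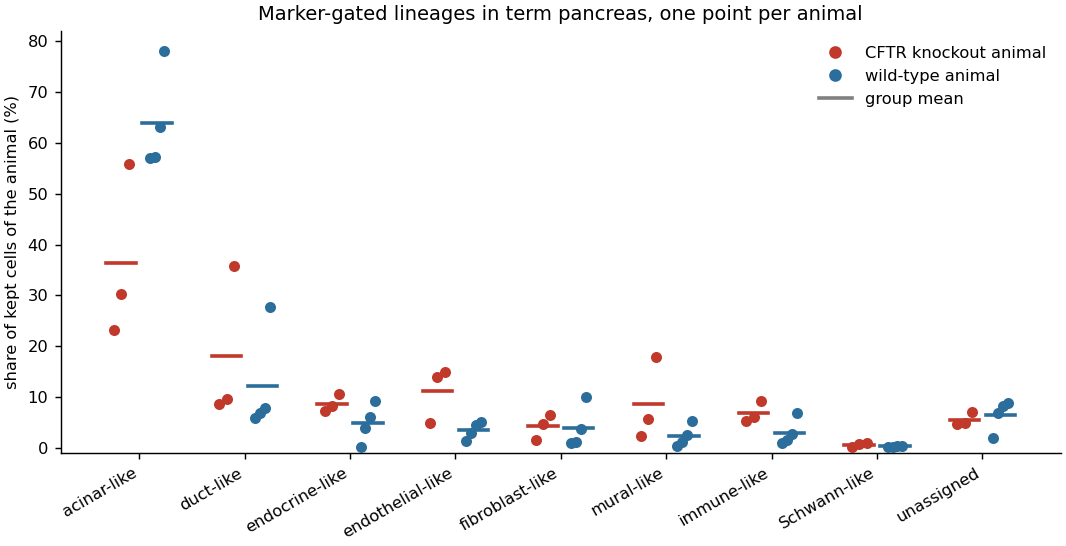
Share of kept cells in each marker-gated class (y axis, percent of the animal's kept cells), with 1 point per animal and the group mean as a bar. Only the acinar-like share separates the 3 CF animals (23.1% to 55.8%) from the 4 WT animals (57.0% to 78.0%).

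CFTR itself was measured through 3′ tags, which lie outside the targeted exon 2, so its level does not check the knockout. In duct-like cells its level was 196, 315 and 207 CPM (the UMIs of a gene scaled to a fixed library total) in CF donors 1 to 3 and 226, 223, 222 and 163 CPM in WT donors 1 to 4. The groups overlapped, with the highest value in CF donor 2 and the lowest in WT donor 4. The log2 fold change of CF over WT was 0.20 ± 0.23 (SE; edgeR's quasi-likelihood test, adjusted p = 0.719). CFTR was low in the acinar-like cells, which held 2.94 to 4.22 CPM in CF and 2.09 to 4.25 CPM in WT animals. A CFTR UMI was found in 68.9%, 83.6% and 76.8% of the duct-like cells of the CF animals and in 47.9% to 77.9% of those of the WT animals. When every cell was thinned to 2000 UMIs, these shares were 30.0% to 48.5% in CF and 24.7% to 39.5% in WT animals, against 0.31% to 1.22% of endocrine-like cells. The transcript was thus detected in the duct-like cells of all 3 CF animals.

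Gene expression in the duct-like cells was then compared over all genes. The sums per animal held 305 to 1476 duct-like cells in CF and 221 to 567 in WT animals. Of 11230 genes tested, 119 passed an adjusted p of 0.05 (edgeR), which is 1.06% of the genes tested, with 98 higher (0.873%) and 21 lower (0.187%) in CF animals. Adjusted p-values of the called genes ran from 0.0276 to 0.0483. Their log2 fold changes ran from -4.61 to 6.55 with a median size of 2.22, and in all 119 the values of CF and WT animals did not overlap. Across all genes tested, the animals did not overlap in 8.16% (higher in CF) and 6.72% (lower in CF). DESeq2 called 390 genes higher (2.92% of those it tested) and 158 lower (1.18%).

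The duct calls depended on which animals entered. Without CF donor 1 there were 373 calls, 114 of them among the 119. Without CF donor 2 there were 2 calls, of which 0 were among the 119, and without CF donor 3, the clone, 5, all among them. The fits without WT donor 1, 3 or 4 gave 0 calls, and the fit without WT donor 2 gave 95, of which 52 were among the 119. Each of the 119, TNC and COL4A1 included, thus lost its call without CF donor 2 and without WT donor 1, 3 or 4. None of the 119 genes changed direction in any of these fits, and their highest adjusted p was 0.181. The kept direction was fixed in advance, since the groups did not overlap in these genes and each fit left out only 1 animal. With the sex of the animal as a covariate, 13 genes were called, 10 of them among the 119. TNC, TAGLN, COL4A1, APOA1 and ST8SIA1 were among these, and LTF, KLK1, FN1, SLC26A9, CNN1 and MYH9 were not.

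**Figure D2:**
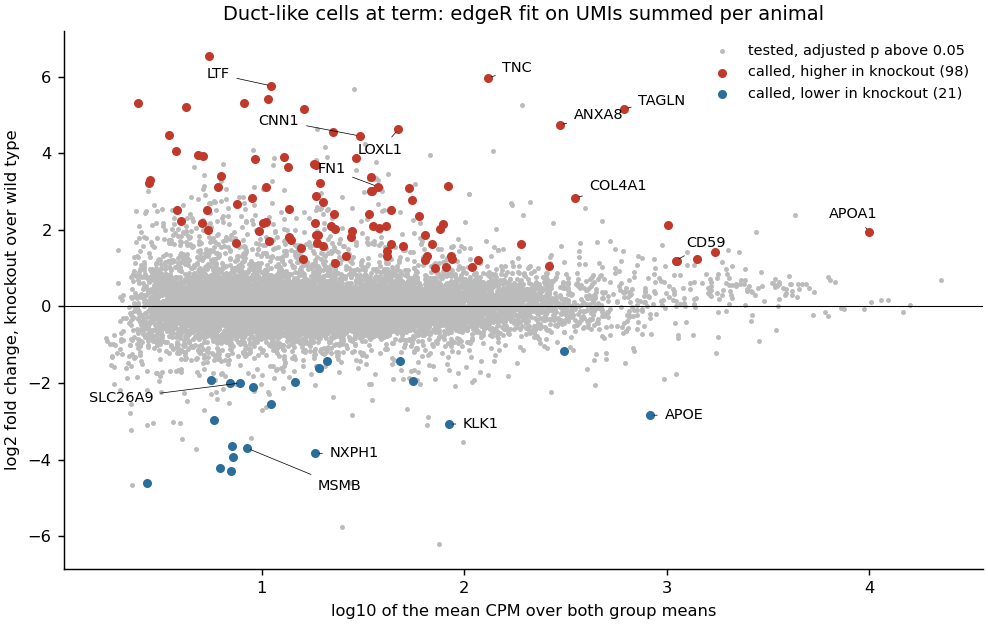
Log2 fold change of CF over WT animals in duct-like cells (y axis) against the log10 of the mean CPM (x axis), 1 point per gene tested. The 98 genes called higher reach 6.55 and the 21 called lower reach -4.61.

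Extracellular matrix genes formed the largest group of called list members. Of 43 genes listed, 21 were expressed enough to test, 6 were higher and 0 lower, against 0.873% of all genes called higher. The median log2 fold change of the 21 was 1.47, beside -0.01 over all genes tested, and 17 of the 21 lay above 0. COL4A1, a chain of the type IV collagen of basement membranes, stood at 318, 738 and 804 CPM in the CF animals and at 94.1, 108, 74.2 and 69.7 CPM in the WT animals. Each CF animal was above each WT animal, and the log2 fold change was 2.84 ± 0.33 (SE, adjusted p = 0.0276). Its partner chain COL4A2 rose by 3.39 ± 0.56 (adjusted p = 0.0385), from 1.42 to 9.42 CPM in WT animals to 23.9, 79.9 and 86.2 CPM in CF animals.

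TNC, the gene of tenascin-C, a matrix glycoprotein of developing and injured tissue, was almost silent in WT duct-like cells. It stood at 3.43, 9.38, 0.554 and 0.712 CPM in WT donors 1 to 4 and at 73.8, 247 and 456 CPM in CF donors 1 to 3. The lowest CF animal was several times the highest WT animal, and the log2 fold change was 5.97 ± 0.82 (adjusted p = 0.0276). LOXL1, an enzyme that crosslinks elastin, was at 11, 156 and 105 CPM in CF animals and at 1.72 to 6.40 CPM in WT animals (4.62 ± 0.83, adjusted p = 0.0433). FN1, fibronectin, was at 26.1, 139 and 38.0 CPM against 4.98 to 11.7 CPM (3.13 ± 0.59, adjusted p = 0.0460). ADAMTS2, which trims procollagen, was at 22.0, 60.7 and 23.0 CPM against 0.554 to 6.54 CPM (3.22 ± 0.57, adjusted p = 0.0428). In FN1, ADAMTS2 and LOXL1, CF donor 2 was the highest animal, and without it their log2 fold changes were 2.08, 2.61 and 3.99. Without CF donor 2 none was called, as for all other called genes. FN1 was called only without CF donor 1 among the fits that left out 1 animal. Among the list members that missed the threshold were TIMP1, an inhibitor of matrix proteases (log2 fold change 2.72, adjusted p = 0.0522), and SPARC, a collagen-binding matrix protein (197, 827 and 329 CPM against 51.5 to 165 CPM, 2.19, adjusted p = 0.108), and neither overlapped between the groups.

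Genes of the contractile apparatus pointed the same way. Of 12 tested, 3 were higher and 0 lower, against 0.873% of all genes called higher, 11 lay above 0, and the median log2 fold change was 1.05. TAGLN, transgelin, an actin-binding protein best known from smooth muscle, stood at 357, 1329 and 1911 CPM in CF and at 67.5, 35, 3.32 and 24.9 CPM in WT animals. CF animals were all above WT animals (5.17 ± 0.84, adjusted p = 0.0385). CNN1, calponin, was at 30.1, 93.5 and 52.3 CPM in CF and at 0.858, 5.40, 2.77 and 0.712 CPM in WT animals (4.45 ± 0.60, adjusted p = 0.0276). MYH9, the heavy chain of a non-muscle myosin that most cells use, rose less, from 57.6 to 85.9 CPM in WT to 138 to 178 CPM in CF animals (1.22 ± 0.21, adjusted p = 0.0406). ACTA2, smooth muscle actin, was at 2.61, 36.1 and 24.5 CPM in CF and at 0.554 to 2.85 CPM in WT animals and did not pass (3.71, adjusted p = 0.0875), with CF donor 1 inside the WT range.

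Since these genes also mark mesenchymal cells, the markers of other cell types were summed within the duct-like cells. TAGLN, COL4A1, COL4A2, SPARC and ACTA2 are also named by the study for its term stellate cluster. The 11 mural markers, of which 0 were at 0 UMIs, summed to 69.7 to 82.4 CPM in CF and 78.5 to 119 CPM in WT animals. The 10 fibroblast markers summed to 21.9 to 122 CPM against 17.4 to 63.6 CPM, the 12 endothelial markers to 6.41 to 29.7 CPM against 2.46 to 15.2 CPM, and the 6 measured mesothelial markers to 5.28 to 61.2 CPM against 1.23 to 23.8 CPM. The mural, fibroblast, endothelial and mesothelial sums overlapped between the groups, and all but the mural sum reached higher values in CF animals. Single genes set much of these sums. Of the mural markers, GUCY1B3 was at 36.4 to 51.7 CPM in CF and 37.45 to 62.1 CPM in WT animals, and NOTCH3 at 17.6 to 21.4 against 19.7 to 41.4 CPM. In CF donor 2 LUM was at 76.15 and MSLN at 58.3 CPM, with DCN at 0.258 and PDGFRA at 0 CPM. DCN was highest in WT donor 2, at 21.0 CPM. The sums thus cannot be read as amounts of those cell types. Mural, fibroblast and endothelial markers were also used in the gate, which removed barcodes high in them, so these sums were measured after that removal. The part of RNA from those cell types in the matrix and contractile genes was not tested. The 13 acinar markers, a measure of enzyme RNA in the duct-like barcodes, summed to 2494 to 21541 CPM in CF and 3228 to 12117 CPM in WT animals.

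The same genes were read cell by cell after thinning to 2000 UMIs, which left out 10 to 66 shallower duct-like cells per CF animal and 3 to 25 per WT animal. TNC was seen in 6.84% to 50.1% of the duct-like cells of CF animals and in 0% to 1.02% of those of WT animals, and in 0% to 0.816% of endocrine-like cells of CF animals. TAGLN was seen in 14.5% to 69.8% against 0.459% to 3.06% of duct-like cells, and in 0.224% to 2.45% of endocrine-like cells of CF animals. COL4A1 reached 35.5% to 68.7% against 10.5% to 16.7%, with 4.36% to 12.7% in endocrine-like cells of CF animals. Without thinning the duct-like shares in CF and WT animals were 18.0% to 86.0% and 0.424% to 3.34% for TNC, 27.0% to 86.6% and 0.905% to 10.4% for TAGLN, and 70.5% to 94.7% and 25.4% to 48.5% for COL4A1. For each of these genes the lowest CF animal lay above the highest WT animal and above the endocrine-like and acinar-like cells of the CF animals. In acinar-like cells the shares after thinning were 0.0198% to 0.215% in CF against 0% in WT animals for TNC, 0.178% to 1.76% against 0% to 0.264% for TAGLN, and 0.812% to 1.76% against 0% to 1.34% for COL4A1. Without thinning they were 0.191% to 2.99% against 0% to 0.110% for TNC, 1.21% to 17.6% against 0.118% to 2.90% for TAGLN, and 4.99% to 20.9% against 3.00% to 8.80% for COL4A1. TNC thus did not overlap between the groups in acinar-like cells either, and the part of free RNA in these shares was not tested. Median depth before thinning was 10750 to 11656 UMIs per duct-like cell in CF and 3976.5 to 9347 UMIs in WT animals.

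Further genes that rose came from no listed group. ANXA8, a calcium-dependent membrane-binding annexin, stood at 141, 889 and 678 CPM in CF and at 10.6, 30.7, 7.20 and 37.7 CPM in WT animals (4.74 ± 0.73, adjusted p = 0.0334). UCHL1, a deubiquitinase known from neurons, was at 19.3, 46.1 and 62.5 CPM against 0.569 to 3.88 CPM (4.56 ± 0.59), ROBO3, a receptor of axon guidance, at 6.90, 30.5 and 26.1 CPM against 0 to 0.853 CPM (5.41), and FADS3, of the fatty acid desaturase family, at 7.55, 50.4 and 36.9 CPM against 0 to 1.42 CPM (5.16). In all of these, CF donor 1 was the lowest CF animal and was still above every WT animal. The unnamed loci LOC101113831 (7.57 to 15.8 CPM against 0 to 0.284 CPM) and LOC443475 (9.06 to 20.5 CPM against 0 to 1.14 CPM) complete the 10 highest fold changes. Where WT animals are at or near 0, the fitted fold change depends on the prior count.

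The 2 genes that follow were chosen after their values were seen. APOA1, the main protein of high-density lipoprotein, was at 13558, 12982 and 21148 CPM in CF and at 4217, 3241, 3698 and 5281 CPM in WT duct-like cells. All CF animals were above all WT animals (1.95 ± 0.26, adjusted p = 0.0276). After thinning, APOA1 UMIs were found in 88.6% to 99.6% of duct-like cells in CF and 78.0% to 90.0% in WT animals (91.8% to 99.9% and 86.6% to 95.3% unthinned). These shares overlapped between the groups. In endocrine-like cells they did not, at 4.47% to 11.4% in CF and 1.99% to 2.61% in WT animals after thinning. Unthinned, the endocrine-like shares were 16.7% to 34.4% and 5.02% to 6.38%. The part of free RNA in the duct-like APOA1 values was not tested. CD59, which protects cells from complement, was at 1358, 1375 and 1895 CPM against 545 to 820 CPM (1.19 ± 0.23, adjusted p = 0.0460).

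Of 17 inflammation genes tested, 1 was higher (against 0.873% of all genes), 0 were lower (against 0.187%), and the median log2 fold change was 0.44. The called gene was LTF, lactoferrin, an iron-binding antimicrobial protein of secretions, at 21.6, 36.4 and 8.14 CPM in CF and at 0.286, 0.853, 0 and 0 CPM in WT animals (5.76 ± 0.77, adjusted p = 0.0276). LTF was no longer called with sex as a covariate. Like every called gene, it also lost its call without CF donor 2 or WT donor 1, 3 or 4. C3, the central complement component, stood at 152, 155 and 76.8 CPM against 0.286, 25.3, 0.554 and 3.56 CPM and did not pass (3.95, adjusted p = 0.0933), although the groups did not overlap. PIGR, which carries antibodies into secretions, was at 39.6 to 76.3 CPM against 10.3 to 28.2 CPM (1.63, adjusted p = 0.0822).

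Genes of duct secretion gave few calls. Of 18 ion and fluid transport genes tested, 0 were higher and 1 was lower, against 0.187% of all genes called lower, with a median log2 fold change of -0.22 and 13 of 18 below 0. The called gene was SLC26A9, an epithelial chloride transporter of the SLC26 family, at 3.36, 4.35 and 1.95 CPM in CF and at 14.3, 9.95, 12.2 and 13.5 CPM in WT animals. CF animals all lay below WT animals (-2.0 ± 0.36, adjusted p = 0.0428). SLC26A9 was no longer called with sex as a covariate, with a stricter gate, or without any 1 animal other than CF donor 1. Without CF donor 2 or WT donor 1, 3 or 4 this held for every called gene. SLC4A4, the sodium bicarbonate cotransporter that loads duct cells with bicarbonate, was at 254, 83.0 and 176 CPM in CF and at 811, 813, 862 and 371 CPM in WT animals, again without overlap, and missed the threshold (-2.06 ± 0.43, adjusted p = 0.0668). SCTR, the secretin receptor (1.45, adjusted p = 0.217), and SLC12A2, a sodium, potassium and chloride cotransporter (0.88, adjusted p = 0.269), overlapped between the groups. None of 11 mucin and goblet cell genes was called, against 1.06% of all genes tested, so this count says little about them. Of the 11, 3 were higher and 1 lower without overlap, against 8.16% and 6.72% of all genes tested. MUC1, a membrane mucin, was at 77.3 to 111 CPM in CF and 11.4 to 44.8 CPM in WT animals (1.72, adjusted p = 0.0961).

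Among the called genes named here that fell, APOE, an apolipoprotein, had the highest level. It stood at 357, 77.8 and 173 CPM in CF and at 2168, 1079, 1593 and 979 CPM in WT animals, with every CF animal below every WT animal (-2.84 ± 0.53, adjusted p = 0.0460). After thinning, APOE was found in 13.6% to 37.9% of duct-like cells of CF and 69.9% to 87.6% of those of WT animals (46.6% to 70.9% and 80.1% to 95.5% unthinned), against 1.01% to 3.67% of endocrine-like cells of CF animals. KLK1, tissue kallikrein, a secreted protease, fell from 168, 121, 161 and 152 CPM in WT to 29.3, 9.22 and 14.3 CPM in CF animals (-3.07 ± 0.38, adjusted p = 0.0276). It was no longer called with sex as a covariate or when CF donor 3 was left out. Like every called gene, KLK1 also lost its call without CF donor 2 or WT donor 1, 3 or 4. KLK1 is on the list of digestive enzymes, of which 1 of 11 tested was lower, against 0.187% of all genes, and 0 higher. It was also present in acinar-like cells, at a mean of 130 CPM, and the part of free acinar RNA in its duct value was not tested. After thinning, KLK1 was seen in 1.36% to 4.90% of duct-like and 6.26% to 16.8% of acinar-like cells of CF animals, and in 20.5% to 28.9% and 14.2% to 32.2% in WT animals. Unthinned, the duct-like shares were 9.51% to 22.8% in CF and 42.4% to 65.9% in WT animals.

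The remaining genes with the lowest fold changes were expressed at low levels in WT and close to 0 in CF duct-like cells. NXPH1, a secreted ligand of neurexins, was at 5.31, 1.02 and 0.631 CPM in CF and at 34.0, 33.6, 52.6 and 17.8 CPM in WT animals (-3.84 ± 0.71, adjusted p = 0.0450). MSMB, a secreted protein first known from prostate, was at 0 to 2.42 CPM against 12.8 to 17.6 CPM (-3.70). ST8SIA1, the sialyltransferase that makes ganglioside GD3, was at 0.768 to 1.38 CPM against 10.8 to 17.4 CPM (-3.64 ± 0.37). SPON1, F-spondin, a matrix protein (-4.29), EDN3, the peptide hormone endothelin 3 (-4.23), A4GNT, a glycosyltransferase of gland mucins (-2.97), the tyrosine kinase gene MATK (-2.09) and the loci LOC105613077 (-3.94) and LOC105604131 (-2.56) complete the 10 lowest. STC1, the glycoprotein stanniocalcin, chosen after its values were seen, was at 24.9, 31.7 and 13.6 CPM in CF and at 121, 80.5, 93.0 and 58.4 CPM in WT animals (-1.94 ± 0.34, adjusted p = 0.0428).

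**Figure D3:**
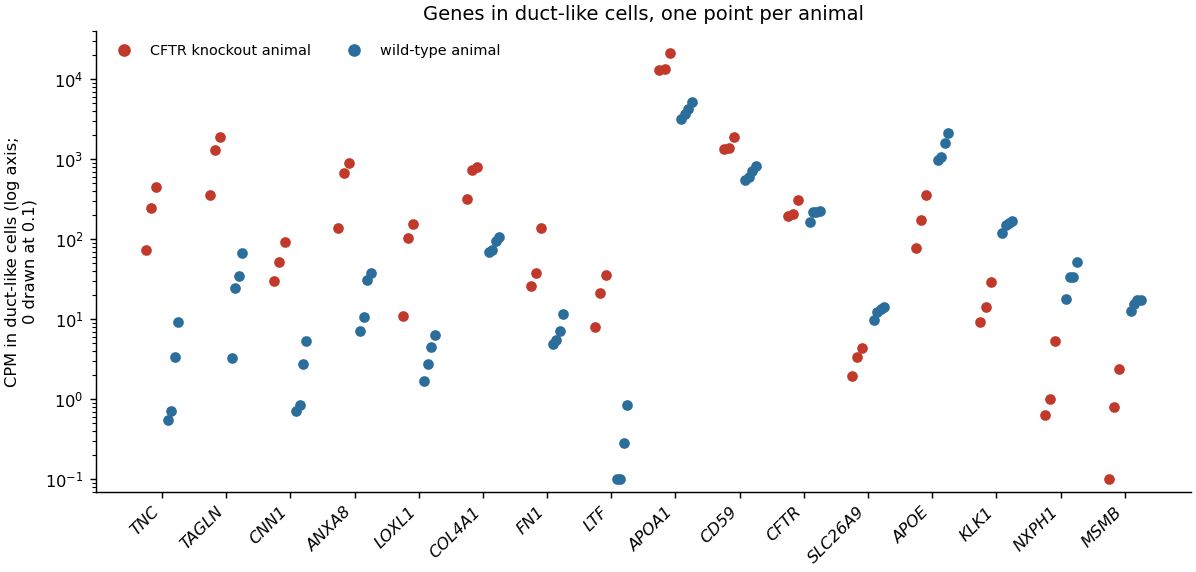
Levels of 16 genes in duct-like cells (y axis, CPM on a log axis, with 0 drawn at 0.1), 1 point per animal, CF and WT animals side by side. The groups are apart for every gene shown except CFTR, whose CF animals (196 to 315 CPM) lie over the WT animals (163 to 226 CPM).

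Genes of cell division were not called in duct-like cells (0 of 30, against 1.06% of all genes tested), yet all 30 had a log2 fold change above 0, with a median of 1.25. Of the 30, 16 had an unadjusted p under 0.05 in that direction, against 10.0% of all genes tested. Only 2 of the 30 were higher without overlap of the animals, against 8.16% of all genes tested. All 30 are read from the same cells and animals, so they are not separate observations. TOP2A, a topoisomerase of dividing cells, was at 17, 105 and 77.6 CPM in CF and at 4.58, 42.4, 3.88 and 7.12 CPM in WT animals (2.11, adjusted p = 0.256), with WT donor 2 above CF donor 1. Counted per cell, after thinning to 2000 UMIs, cells with UMIs of at least 2 dividing markers were 2.40% (21 of 877), 8.47% (25 of 295) and 4.68% (66 of 1410) of the duct-like cells of CF donors 1 to 3. In WT donors 1 to 4 they were 0.680% (2 of 294), 2.21% (12 of 542), 0.917% (2 of 218) and 0.913% (2 of 219). The groups did not overlap, though CF donor 1 and WT donor 2 were close (difference 4.00 percentage points, exact permutation p = 0.0571, the smallest possible, adjusted p = 0.400 over 7 lineages). Unthinned shares were 9.70% to 18.7% in CF and 2.12% to 5.82% in WT animals. After thinning, the dividing share of each other lineage overlapped between the groups, for example 2.97% ± 1.81 (SD, n = 3) against 2.92% ± 1.63 (SD, n = 4) in acinar-like cells. Unthinned, the fibroblast-like shares did not overlap either (2.17% to 3.08% in CF against 0% to 1.47% in WT animals).

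Sterol synthesis genes lay on the other side. In duct-like cells 0 of 21 were called, against 1.06% of all genes tested, and 18 lay below 0. The median log2 fold change was -1.02, and 10 had an unadjusted p under 0.05, against 6.71% of all genes in that direction. HMGCS1, which makes the precursor of mevalonate (-1.71, adjusted p = 0.256), and INSIG1, a sensor of cell sterols (-1.88, adjusted p = 0.272), varied widely among the WT animals, from 29.9 to 369 CPM and from 9.96 to 141 CPM. The median of the list was below 0 in each of the 7 lineages: -0.55 in acinar-like, -0.28 in endocrine-like, -0.97 in endothelial-like, -1.20 in fibroblast-like, -1.29 in mural-like and -0.36 in immune-like cells, with medians over all genes tested between -0.03 and 0.02. WT donor 2 had the highest values of several of these genes. In fibroblast-like cells HMGCS1 was at 73.6 CPM in WT donor 2 and at 20.8 and 22.6 CPM in WT donors 3 and 4, against 14 to 34.2 CPM in CF animals, and without WT donor 2 its log2 fold change moved from -1.26 to -0.15. INSIG1 in mural-like cells moved from -2.81 to -0.69 without WT donor 2. The lineages come from the same animals and are not separate tests of the genotype. In mural-like cells all 19 genes tested lay below 0, 13 with an unadjusted p under 0.05 (1.86% of all genes) and 12 without overlap of the animals (8.44% of all genes, 3 against 2 animals). Fewer were without overlap elsewhere: 0 of 21 in duct-like (6.72% of all genes) and 0 of 21 in acinar-like cells (3.53%), and 2 each in endocrine-like (2.49%), endothelial-like (1.58%), fibroblast-like (3.68%) and immune-like cells (5.31%). HMGCS1 in mural-like cells was at 15.4, 16.8 and 19.1 CPM in CF and at 79.0 and 57.4 CPM in WT donors 2 and 4, and SREBF2, the master regulator of sterol genes, at 19.2 to 21.5 CPM against 71.7 and 46.6 CPM. None of these passed the adjusted threshold.

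**Figure D4:**
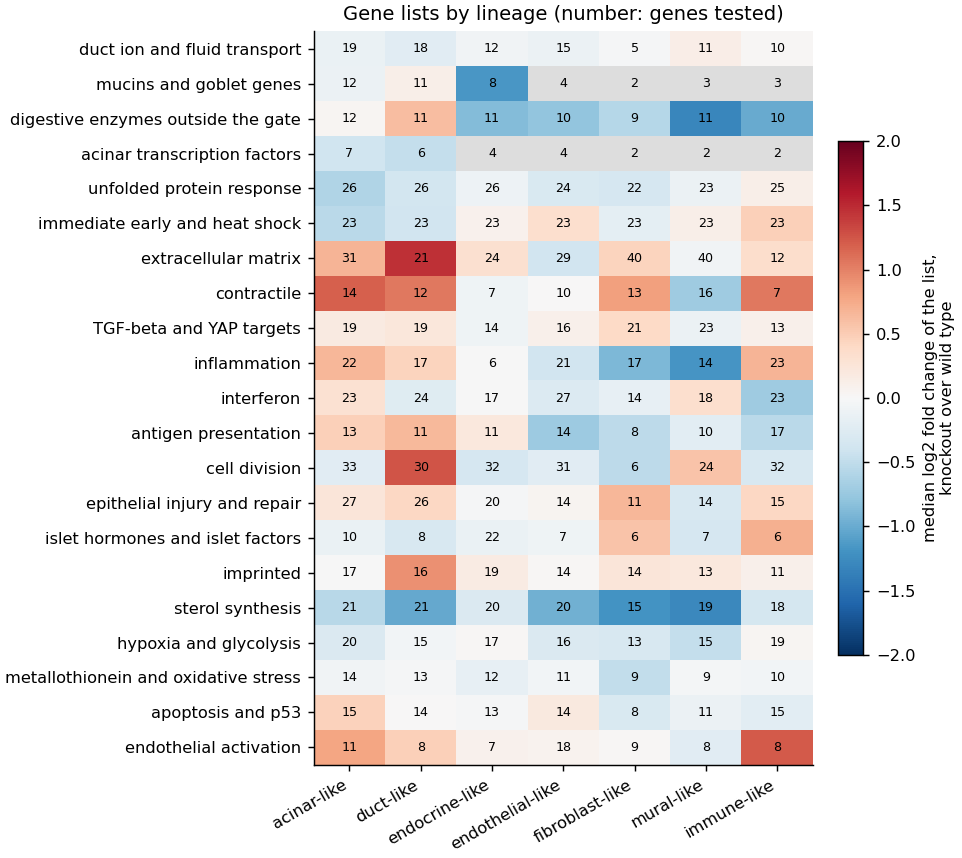
Median log2 fold change of CF over WT animals for each gene list (rows) in each lineage (columns), as colour from -2 to 2, with the number of genes tested in each cell and cells of fewer than 5 genes in grey. Sterol synthesis is below 0 in all 7 lineages (-0.28 to -1.29), and extracellular matrix reaches its highest median, 1.47, in duct-like cells.

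In acinar-like cells edgeR called 0 of 13386 genes (0.0%), with 609 higher (4.55%) and 507 lower (3.79%) at an unadjusted p under 0.05. DESeq2 called 85 higher (0.581%) and 33 lower (0.226%). The lowest adjusted p of edgeR was 0.147, so the genes that follow did not pass, and apart from the list members they were chosen after their values were seen. Of 26 genes of the unfolded protein response, the system that matches folding capacity to secretory load, 23 lay below 0 with a median log2 fold change of -0.59. Of these, 11 had an unadjusted p under 0.05 (3.79% of all genes) and 4 did not overlap (3.53% of all genes). HSPA5, the main chaperone of the endoplasmic reticulum, was at 716, 649 and 945 CPM in CF and at 3354, 1263, 5680 and 1339 CPM in WT animals (-1.92, adjusted p = 0.466). HERPUD1, which acts in the disposal of misfolded proteins, was at 197, 239 and 216 CPM against 818, 427, 799 and 875 CPM (-1.75 ± 0.31, adjusted p = 0.179, and 1.42e-05 with DESeq2). Both were lower in all 3 CF animals than in any WT animal. The same 26 genes had a median of -0.37 in duct-like cells, where HSPA5 was at 815 to 1511 CPM in CF and 1810 to 2872 CPM in WT animals (-1.21, adjusted p = 0.0941).

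Acinar-like cells of the CF animals held more CYM, the milk-clotting protease chymosin, at 152, 882 and 735 CPM against 9.62, 31.9, 3.13 and 2.93 CPM (5.63 ± 0.99, adjusted p = 0.179). CKB, the brain-type creatine kinase, was at 143, 159 and 165 CPM against 55.5, 27.6, 50.5 and 49.9 CPM (1.76, adjusted p = 0.147). CES1, a carboxylesterase, was at 24.6, 2.07 and 27.0 CPM against 102, 257, 116 and 109 CPM (-3.03, adjusted p = 0.430). In each of these genes the groups did not overlap, as in 4.46% (higher) and 3.53% (lower) of all genes tested. Among the 12 digestive enzyme genes outside the gate, 6 lay above and 6 below 0 and the median was 0.05. The acinar-like cells of CF donor 1 had a median mitochondrial share of 0.277%, against 2.58% to 3.71% in the other animals. They made up 5228 of the 7248 acinar-like cells of CF animals, and the part of this difference in the acinar values was not tested. The 12 duct markers summed to 522 to 797 CPM in acinar-like cells of CF and to 205 to 399 CPM in those of WT animals, without overlap. The part of duct RNA in the acinar values was not tested either.

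Endocrine-like cells gave 0 calls of 10977 genes (0.0%) with edgeR, 140 higher (1.28%) and 90 lower (0.82%) at an unadjusted p under 0.05, and 0 with DESeq2. Of 22 islet hormone and islet factor genes tested, 6 lay above and 16 below 0, with a median log2 fold change of -0.13. GCG, glucagon, spread from 5619 to 82555 CPM in CF and from 7402 to 56146 CPM in WT animals (0.02), and PPY, pancreatic polypeptide, from 36302 to 140376 CPM against 13605 to 82223 CPM (0.75). The hormone levels thus differed more among animals of one genotype than between genotypes. INS was not analysed here.

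Endothelial-like, fibroblast-like and mural-like cells likewise gave 0 edgeR calls (0.0%), of 10144, 7206 and 9144 genes. At an unadjusted p under 0.05 there were 97 higher (0.956%) and 138 lower (1.36%) in endothelial-like cells, 200 (2.78%) and 104 (1.44%) in fibroblast-like cells, and 164 (1.79%) and 170 (1.86%) in mural-like cells. DESeq2 called 1 gene lower in endothelial-like (0.00564%), 1 higher in fibroblast-like (0.00562%) and 0 in mural-like cells. The gene that DESeq2 called in endothelial-like cells was IGFBP6, a protein that binds insulin-like growth factors, at 204, 287 and 201 CPM in CF and at 832, 910, 636 and 536 CPM in WT animals (edgeR log2 fold change -1.66 ± 0.28, adjusted p = 0.509, and 8.57e-05 with DESeq2). In fibroblast-like cells TAGLN was at 214, 313 and 1546 CPM against 88.6, 312 and 103 CPM in WT donors 2 to 4 (2.14), a spread set by CF donor 3. The contractile list had a median of 0.82 there (10 of 13 genes above 0), 1.20 in acinar-like cells (13 of 14), 1.06 in immune-like cells (7 of 7) and -0.72 in mural-like cells (1 of 16). WT donor 4 was above every other animal in 15 of these 16 genes, MYH9 being the exception. CNN1 was at 5726 CPM in WT donor 4, against 933 CPM in WT donor 2 and 351 to 1419 CPM in CF animals. A count of 0 calls in groups of this size does not show that genes were alike.

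Immune-like cells were split by the markers they held most of. Macrophage-like cells were 61.6%, 72.0% and 72.9% of the immune-like cells of CF donors 1 to 3 and 10.5%, 6.52% and 38.8% in WT donors 2 to 4. In WT donors 2 to 4 these were 69 of 660, 3 of 46 and 31 of 80 cells. The groups did not overlap (68.8% ± 6.27, SD, n = 3, against 18.6% ± 17.6, SD, n = 3; exact permutation p = 0.1, the smallest that 3 against 3 allow, adjusted p = 0.250). T cell-like cells were 7.19%, 1.85% and 4.05% in CF and 56.2%, 39.1% and 6.25% in WT animals, where WT donor 4 lay inside the CF range. As a share of all kept cells, which admits all 7 animals, macrophage-like cells were 3.20% to 6.61% in CF and 0.0924% to 1.03% in WT animals (difference 4.22 percentage points, exact permutation p = 0.0571, adjusted p = 0.114). Dendritic-like cells did not overlap either, at 0.406% to 0.508% in CF and 0% to 0.367% in WT animals (exact permutation p = 0.0571, adjusted p = 0.114), but as a share of immune-like cells they overlapped (5.54% to 7.80% against 5% to 6.52% in 3 WT animals), as they did as a share of cells other than acinar-like ones. T cell-like cells were 0.169% to 0.374% against 0.166% to 3.89%. Immune-like cells of CF animals were deeper, with a median of 6374 to 10109 UMIs against 2757 to 3806 UMIs in WT animals. Immune-like cells of under 1000 UMIs were then left out and the others thinned to 1000 UMIs. The macrophage-like share was 49.4% to 66.1% against 4.35% to 23.8%, still without overlap. Cells with no subset or a tie were 30.3% to 43.35% in CF and 39.1% to 72.5% in WT animals. Summed over the immune-like cells, the 9 macrophage markers overlapped between the groups, at 4599 to 8809 CPM in CF and 745 to 7370 CPM in WT animals.

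No gene of 9223 was called in the immune-like cells as a whole with edgeR (0.0%). At an unadjusted p under 0.05 there were 413 higher (4.48%) and 366 lower (3.97%), and DESeq2 called 22 (0.223%) and 54 (0.548%). FN1 was at 1212, 419 and 1270 CPM in CF and at 12.7, 75.1 and 104 CPM in WT animals (3.98, adjusted p = 0.291), and CD36, a scavenger receptor of macrophages, at 497, 423 and 406 CPM against 141, 33.4 and 35.5 CPM (2.58). CD69, an early activation marker of lymphocytes, was at 27.3, 6.74 and 12.2 CPM against 163, 150 and 87.4 CPM (-3.10, adjusted p = 0.186). These genes were chosen after their values were seen, and the immune-like sums mix the subsets. The part of the subset shares in these values was not tested.

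**Figure D5:**
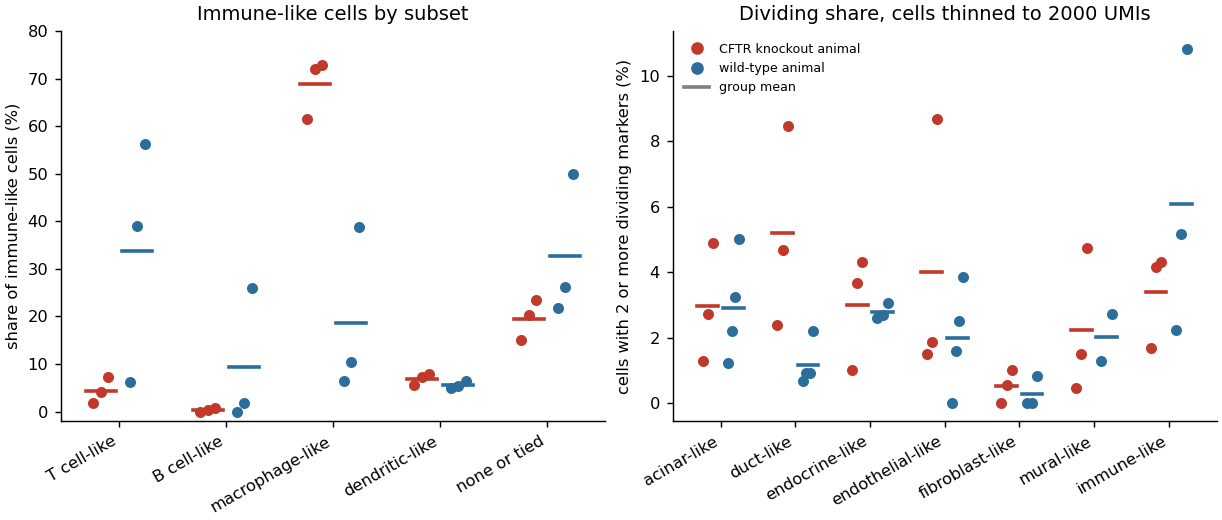
Left, share of immune-like cells assigned to each subset (y axis, percent), and right, share of cells with UMIs of at least 2 dividing markers after thinning to 2000 UMIs (y axis, percent) in each lineage, with 1 point per animal and the group mean as a bar. Macrophage-like cells lie at 61.6% to 72.9% in CF and 6.52% to 38.8% in WT animals, and duct-like cells show the only dividing share without overlap (2.40% to 8.47% against 0.680% to 2.21%).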

How the data were processed

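The authors sequenced 10x Genomics 3′ libraries of pancreas digested with collagenase or Liberase TL, freed of red cells and treated with Accutase, ran Cell Ranger 3.1.0 against the Oar_v4.0 assembly (per the submitters' notes), and deposited filtered matrices of raw UMI counts, not normalized. The matrices name 24478 genes, 8432 by LOC identifier only. Of these, 567 were given symbols, 497 from a RefSeq table of another assembly (ARS-UI_Ramb_v3.0) and the others from the study's tables. They were used for names only, and some may be wrong. Whether reads were counted by strand is not given in the sources used here, so overlapping genes and near-identical copies are uncertain.

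Barcodes with over 200 and under 6000 genes and under 25% mitochondrial UMIs were kept (33913 of 49603). Cells were gated by mean log marker score, so gate markers are no findings. Classes other than acinar-like needed a score of at least 0.5 (duct 1.0) and an acinar score of at most 3.0. They also needed a margin of 0.2 over the next lineage, with each score counted from its own minimum. Acinar-like cells needed an acinar score of at least 2.5 and every other lineage score below its minimum. Doublets were kept: Scrublet called 299 cells (0.882%), and an alternative removed the 1701 cells (5%) of highest score. Counts were summed per animal and lineage (at least 20 cells) and tested with edgeR 4.0.16 (TMM, filterByExpr, quasi-likelihood, R 4.3.3), with Benjamini-Hochberg adjustment over all genes tested and a threshold of 0.05. SEs are the log2 fold change over the square root of F. Shares were compared with exact two-sided permutation tests over all reassignments of the animals, with the smaller tail doubled. Alternatives included DESeq2 1.42.0. The fit was also run on simulated data with 200 changed genes per lineage, and no statement here rests on that run.

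Genes were named by rule: in each lineage the 10 highest and 10 lowest log2 fold changes among called genes with a mean of at least 10 CPM in one group and no overlap of animals, without gate markers or, outside acinar-like cells, digestive enzymes, besides CFTR and called list members. Genes outside the rule are said to be chosen after their values were seen, and list members that missed the threshold are given with their values. The members and gene lists were chosen with earlier results of these data known. The sources do not give breeding season or kit for each animal, so p-values measure the spread between these animals with any such differences in it.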

Additional observations from a re-analysis of the deposited data

Results flagged for a closer look

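In each group of 4 WT animals the highest and lowest values were set against the other animals, and 11 of 71 such groups had 1 animal far from the rest, where chance gives about 1 in 20. The 71 sets of values come from the same 4 animals and were chosen in part after they were seen. Among them were WT donor 1, whose duct-like share of 27.6% stood above 5.94%, 6.81% and 7.84% in the others, and WT donor 4, with 163 CPM of CFTR against 222 to 226 CPM and 371 CPM of SLC4A4 against 811 to 862 CPM in duct-like cells. WT donor 4 also had 14.2 CPM of ANXA1, an annexin, in acinar-like cells against 1.18 to 3.23 CPM, beside 2.67 for its log2 fold change of CF over WT (adjusted p = 0.509).

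WT donor 2, the animal with the most cells, stood apart most often. In its duct-like cells the dividing share was 2.21% against 0.680% to 0.917%, TOP2A was at 42.4 CPM against 3.88 to 7.12 CPM, C3 at 25.3 CPM against 0.286 to 3.56 CPM, LOC443475 at 1.14 CPM and LOC101113831 at 0.284 CPM where the other WT animals were at 0. In its acinar-like cells HERPUD1 was at 427 CPM against 799 to 875 CPM and CES1 at 257 CPM against 102 to 116 CPM. For LOC443475 and LOC101113831 any count above 0 would stand apart, since the other WT animals were at 0. Both are among the groups counted above, and their flags carry no weight.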

How the results depend on the processing

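Duct-like cells gave 119 calls, and 116 with relative log expression scaling, 548 with DESeq2 (71.2% higher, against 82.4%), 260 without a filter on low counts, 13 with sex as a covariate, 110 with a stricter gate, 113 without the cells of highest Scrublet score, 139 with library A only and 94 after thinning to equal totals. Leaving out 1 animal gave between 0 and 373. All of the 119 genes that were still tested kept their direction in these fits. For the fits that left out 1 animal this was fixed in advance, since the groups did not overlap in these genes. In the other lineages, 0 calls became 118 (acinar-like), 1 (endothelial-like), 1 (fibroblast-like) and 76 (immune-like) with DESeq2, and 4, 100 and 153 in endothelial-like, fibroblast-like and immune-like cells without a filter. Leaving out 1 animal gave 0 to 3 calls in acinar-like, 0 to 1 in endocrine-like and immune-like, 0 to 11 in mural-like cells (11 without WT donor 2, with the lone WT animal assumed to vary like the CF animals) and 0 in the others. The cause of these moves was not tested.

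Called members of the duct lists moved as follows. Ion and fluid transport, 1 call, had 2 with DESeq2, without a filter and with library A only, 0 with sex or the stricter gate, and 0 to 2 without 1 animal. Digestive enzymes, 1 call, had 2 with DESeq2, 0 with sex, and 0 to 2 without 1 animal. Extracellular matrix, 6 calls, had 3 with sex and 0 to 9 without 1 animal. Contractile, 3 calls, had 5 with DESeq2 or without a filter, 1 with sex, and 0 to 5 without 1 animal. Inflammation, 1 call, had 2 with DESeq2 or the stricter gate, 4 without a filter, 0 with sex, and 0 to 2 without 1 animal.

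Donor numbers are shared by CF and WT animals that are different animals, so the numbers name no pairs. Deviations of same-numbered animals from their group means correlated between -0.19 and 0.32. For donor 3 the correlation was above 0 in every lineage checked (0.11 to 0.32), and the cause of this was not tested. With the donor number as a replicate block, duct-like cells had 118 calls (54 of the 119), acinar-like and endocrine-like cells 1, endothelial-like 4, fibroblast-like 67 and immune-like 1026, and the block could not be fitted in mural-like cells. Contractile calls fell to 1 and inflammation calls rose to 2 under the block. In edgeR on cell numbers with the block, the log2 fold change of the unassigned class was 0.16, where its share was lower in CF animals.

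Signs turned in several small differences, none of which passed a test. Differences in share without acinar-like cells were -5.73 (duct-like), -1.71 (endocrine-like) and -2.78 (fibroblast-like) percentage points, and with a 10% mitochondrial limit the fibroblast-like difference was -0.002814. Without 1 animal they ran from -2.91 to 11.2 (duct-like) and -0.857 to 2.30 (fibroblast-like). The dividing difference of endocrine-like cells was -0.267 unthinned (an alternative added after the data were seen), -0.156 with the stricter gate and -0.274 with 3 markers, and that of immune-like cells 0.189 with the stricter gate. Without 1 animal the dividing differences ran from 2.36 to 5.40 (duct-like), -0.910 to 0.888 (acinar-like), -0.451 to 1.20 (endocrine-like), -0.304 to 3.28 (endothelial-like), -0.00119 to 0.523 (fibroblast-like) and -1.03 to 1.11 (mural-like). The CFTR log2 fold change ran from -0.048 to 0.29 in acinar-like and -0.045 to 0.31 in duct-like cells.

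With these numbers of animals the exact permutation test of a share cannot pass 0.05, whatever the values.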

Other observations

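Some values belong to no comparison above. Imprinted genes, which are read from one parental copy and can be disturbed in clones, had a median log2 fold change of 0.91 in duct-like cells (16 tested, 13 above 0). Of the 16, 0 were called, against 1.06% of all genes tested. At an unadjusted p under 0.05 (edgeR) 7 were higher, against 10.0% of all genes, and 3 were higher without overlap, against 8.16%. IGF2, a fetal growth factor, was at 56.1, 114 and 5.68 CPM in duct-like cells of CF donors 1 to 3 and at 20.6, 51.8, 0.554 and 46.3 CPM in WT donors 1 to 4. In mural-like cells it was at 1848, 1514 and 1631 CPM in CF animals and at 749 and 415 CPM in WT donors 2 and 4 (1.52). The clone, CF donor 3, had the lowest IGF2 of the CF animals in duct-like cells and lay between the other CF animals in mural-like cells.

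PPY, the hormone of pancreatic polypeptide cells, was at 602, 176 and 8.25 CPM in duct-like cells of CF donors 1 to 3 and at 1.14 to 32.7 CPM in those of WT animals (4.06, adjusted p = 0.158). In endocrine-like cells PPY was at 140376 CPM in CF donor 1, the animal with the highest value in both, and the part of RNA from those cells in the duct-like value was not tested.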
